A study of Rattus norvegicus with 4 samples.

Results

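The nuclear-encoded genes of the respiratory chain were taken as every gene of the count table whose symbol names a subunit of complex I (Ndufa, Ndufb, Ndufc, Ndufs or Ndufv with a number), complex II (Sdha to Sdhd), complex III (symbols starting with Uqcr), complex IV (Cox4 to Cox8) or the ATP synthase, complex V (Atp5). Ndufa4l2 was left out. The rule used symbols and no measured value, and it found 82 of 30560 genes, with 77 different symbols, since 5 symbols stood on 2 gene identifiers each. Of the 82, 36 belonged to complex I, 4 to complex II, 8 to complex III, 17 to complex IV and 17 to complex V. The samples were droplet single-cell libraries (10x Genomics) of wild-type rats, 2 of subcutaneous fascia and 2 of skin. No treatment, age or added allele entered the comparison, and nothing in the labels tells if separate animals were used for each library, so p-values measure the spread between libraries.

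The respiratory chain sits in the inner mitochondrial membrane. Complex I passes electrons from NADH, and complex II passes those from succinate, to ubiquinone. Complex III hands them to cytochrome c, complex IV hands them to oxygen, and the ATP synthase uses the resulting proton gradient to make ATP. Most subunits are encoded in the nucleus and imported, while a small set is encoded in mitochondrial DNA and carries the prefix Mt- in the rat annotation. Complex IV has tissue isoforms: Cox4i2 is best known from lung and from cells that sense oxygen, whereas Cox6a2 and Cox7a1 are the forms of heart and skeletal muscle.

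The fascia libraries held 95777810 and 83852172 UMIs (distinct RNA molecules), and the skin libraries held 88334062 and 85165728. After filters on genes, mitochondrial UMIs and doublets, 6612 and 6818 fascia cells and 6998 and 14098 skin cells were kept. Skin replicate 2 was the shallowest, with a median of 2496 UMIs per cell, against 8856 to 12693 in the other libraries. Pairs of libraries shared 17 to 45 cell barcodes. Cells were assigned to classes by a gate on marker genes, none of them a member, and 80.9% to 88.6% of fascia cells and 75.8% to 94.8% of skin cells passed a gate. In each library at least 20 cells passed the fibroblast, mural (pericyte and smooth muscle), blood endothelial, macrophage and lymphocyte gates, with 214 to 2786 cells a class in fascia and 33 to 691 in skin. The smallest skin classes were lymphocytes (46 and 85 cells), macrophages (47 and 33 cells) and mural cells (62 and 249 cells). Keratinocytes (5693 and 9453 cells) were compared with nothing, since fascia held 0 and 4 of them. In mural cells the 9 mural markers summed to 9836 and 10469 CPM (counts scaled to an equal UMI total per class and library) in fascia and 9691 and 16779 CPM in skin, with none at 0. The 12 keratinocyte markers summed to 8.7 to 21.5 CPM in the fascia classes and to 256 to 977 CPM in the skin classes, and the 2 erythroid markers summed to 55 to 5479 CPM in fascia and 0 to 89.6 CPM in skin. The part of this foreign RNA in the differences given here was not tested.

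In the kept cells the 82 genes gave 4374146 UMIs. By UMI count, not scaled by gene length, Cox4i1, the general form of a complex IV subunit, led with 285933 UMIs. Atp5f1b, the catalytic beta subunit of the ATP synthase, followed with 163811, and Atp5mc2, a copy of its membrane ring subunit, with 162850. The 10 most abundant members held 33.6% of the UMIs. At the other end, Cox6c-ps1 had no UMI, 9 genes had 1 to 99 and 72 had at least 100. Among these near-silent genes were second identifiers of a shared symbol (Ndufb2, Uqcrb, Atp5mk and Atp5mc1), Cox6b1-ps1 and the isoforms Cox7b2, Cox8c and Cox6a2. Reads of near-identical copies may be split between identifiers or lost by the counting, so values of the Ndufs5, Atp5mk and Ndufb2 identifiers are uncertain. The same leading genes recurred over the classes: Cox4i1 was the most abundant complex IV gene and Uqcrh, a hinge subunit, the most abundant complex III gene in all 5, at means over the libraries of 763 to 1066 CPM and 254 to 466 CPM. In complex I, taken by symbol, the leading gene differed by class, with Ndufb8 in mural cells (441 CPM) and Ndufa7 in blood endothelial cells (561 CPM). Ndufb11 led in lymphocytes (228 CPM), Ndufa13 in macrophages (240 CPM) and Ndufa4 in fibroblasts (222 CPM).

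The share of all UMIs that came from the 82 genes was higher in fascia than in skin in every class that both tissues held. In fibroblasts it was 1.30% and 1.24% in fascia, against 0.893% and 0.901% in skin. Blood endothelial cells had 1.51% and 1.55% in fascia and 1.07% and 1.01% in skin. Neither class overlapped between tissues, and the fascia mean was 1.42 times the skin mean in fibroblasts and 1.47 times in blood endothelial cells. Macrophages had 1.41% and 1.30% in fascia and 0.937% and 0.859% in skin, a ratio of 1.51. Lymphocytes had 1.54% and 1.42% in fascia and 0.951% and 0.975% in skin, a ratio of 1.54. Mural cells differed least, with 1.77% and 1.87% in fascia and 1.54% and 1.73% in skin, a ratio of 1.11. Exact 95% binomial intervals, which cover counting error only, were widest in skin macrophage replicate 2, at 0.818% to 0.902%. Keratinocytes of skin had 1.27% and 1.35%.

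Within each of the 4 libraries mural cells had the highest share of these 5 classes. Of the 72 members tested in at least 1 class, 55 had their highest mean level in mural cells, 37 of them in each of the 4 libraries. These levels were scaled by UMI totals, and the same count over all genes was not made. Complex I took 0.542% and 0.577% of the UMIs of fascia mural cells and 0.468% and 0.531% of those of skin mural cells. Its share was higher in fascia, without overlap, in each of the 5 classes, by 1.70 times in lymphocytes and 1.68 times in blood endothelial cells. Complexes II, III and V were likewise above skin in both fascia libraries of each class. Complex IV was the exception: in mural cells it took 0.442% and 0.472% in fascia and 0.465% and 0.444% in skin, so that the tissues overlapped.

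**Figure D1:**
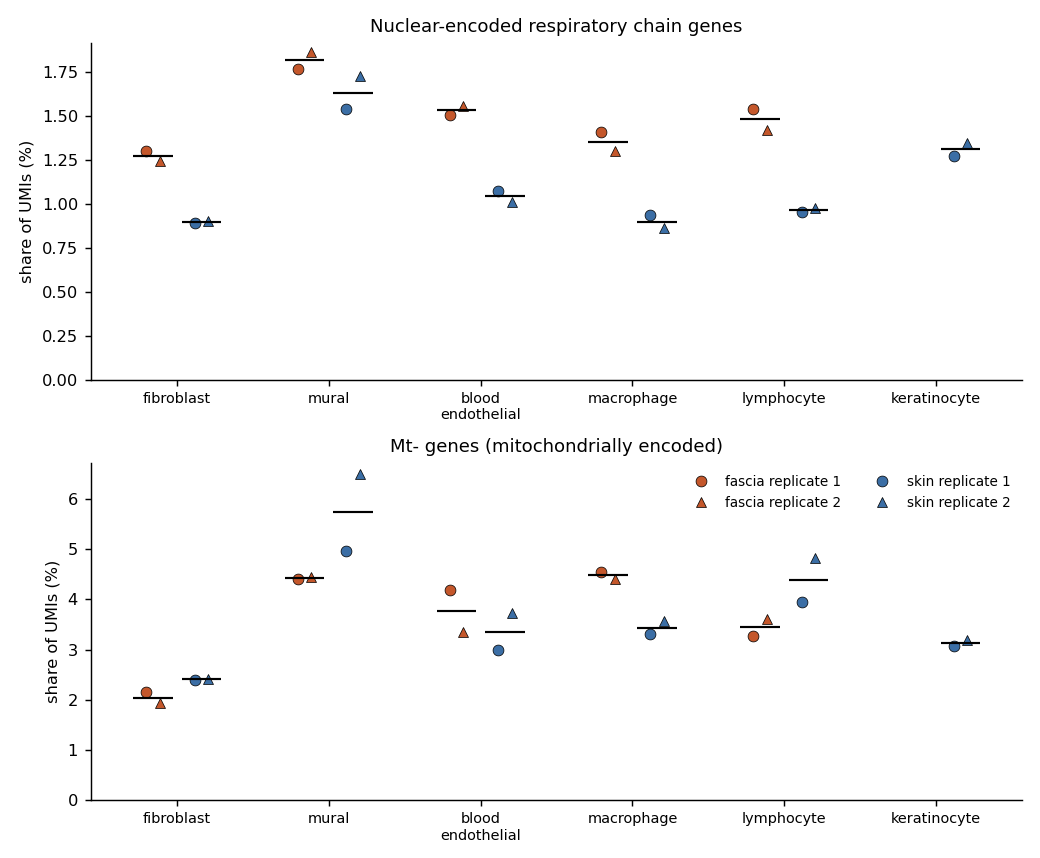
Share of UMIs (percent, linear axes from 0) of the nuclear-encoded respiratory chain genes (top) and of the Mt- genes (bottom) in each marker-gated class; points are libraries (fascia orange, skin blue) and lines are means of 2. The upper points of fascia lie above those of skin in each of the 5 shared classes, with mural cells highest, while the lower points do not follow that order.

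The mitochondrially encoded genes did not follow the nuclear ones. Their share was lower in fascia than in skin in fibroblasts (2.14% and 1.94% against 2.39% and 2.42%), mural cells (4.41% and 4.44% against 4.97% and 6.5%) and lymphocytes (3.27% and 3.61% against 3.96% and 4.82%). In macrophages it was higher in fascia, at 4.56% and 4.41%, against 3.31% and 3.57% in skin, and in blood endothelial cells the tissues overlapped. Fibroblasts thus gave 0.607 and 0.641 nuclear UMIs per Mt- UMI in fascia and 0.373 in both skin libraries. Over the 22 combinations of class and library, keratinocytes included, the 2 shares had a Pearson r of 0.48 and a Spearman rho of 0.46, given as a description. Points of 1 library share its depth, and each share is part of the same total.

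A share depends on what fills the rest of the total. The 10 fibroblast markers, collagens among them, summed to 47090 and 59991 CPM in fascia fibroblasts and to 145406 and 81081 CPM in skin fibroblasts. Scaled by UMI totals alone, the median log2 change of all genes tested, fascia over skin, was 0.25 in fibroblasts, 0.54 in mural cells, 0.55 in blood endothelial cells, 0.47 in macrophages and 0.17 in lymphocytes. The tests of single genes used TMM factors, which brought these medians to 0.05, 0.09, 0.09, 0.22 and 0.08 in the same order. On that scale the median change of the members was 0.26 in fibroblasts, 0.25 in blood endothelial cells, 0.36 in macrophages and 0.65 in lymphocytes. In mural cells it was -0.21, with 48 of 71 members below 0, whereas UMI totals gave a member median of 0.24. Scaled by TMM, the mural median also turned to 0.12 without skin replicate 2, with 43 members above 0 and 29 below. The set thus had no fixed direction in mural cells.

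A gene was called when its adjusted p was under 0.05 in edgeR's quasi-likelihood test on the UMIs summed per library. In fibroblasts 8 of 72 members tested were called, 7 of them higher in fascia. Of all genes tested there, 20.7% were called and 7.81% were called higher in fascia, so these counts are no result about the members as a set. In blood endothelial cells 9 of 71 were called, all 9 higher in fascia, beside 21.3% of all genes called and 8.5% called higher. In lymphocytes 12 of 69 were called, all 12 higher in fascia, beside 12.8% and 4.41% of all genes. In mural cells 7 of 71 were called, 2 of them higher in fascia, beside 15.6% and 5.73%. In macrophages edgeR called 0 of 70, beside 4.81% and 1.11%, and DESeq2 called 0. In the edgeR test 12 members had an unadjusted p under 0.05, beside 2587 of the 11942 genes tested. With 2 libraries a tissue, an exact permutation test cannot give a p under 0.333, so these calls rest on the spread shared across genes.

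Over the classes 24 members were called at least once, and 3 were called higher in fascia in 3 classes each: Atp5me, a small membrane subunit of the ATP synthase, and the accessory complex I subunits Ndufa3 and Ndufb4. The same counts over all genes were not made. With fascia replicate 1 left out, these 3 genes lost the calls that they had in fibroblasts and mural cells. Their promoters, the 250 bases before the transcription start, are shown because these genes moved in the most classes, together with that of Ndufa7, which led the blood endothelial cells. The sequences are from RefSeq (GRCr8, a later build than the mRatBN7.2 named for the counts). Capitals mark matches, on either strand, to the palindromic motif bound by NRF1 (the longest run of capitals, in the Atp5me promoter), CCGGAAG (the ETS family, GABP included), AAGATGG (YY1), GGGCGG (Sp1) and TATAAA.
Atp5me promoter, chr14:1464610-1464859, plus strand: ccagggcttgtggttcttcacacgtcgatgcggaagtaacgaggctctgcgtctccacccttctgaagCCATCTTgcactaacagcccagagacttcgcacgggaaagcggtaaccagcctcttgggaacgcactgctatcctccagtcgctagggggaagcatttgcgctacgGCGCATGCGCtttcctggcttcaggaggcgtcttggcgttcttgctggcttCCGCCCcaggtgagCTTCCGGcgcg
Ndufa3 promoter, chr1:74515559-74515808, minus strand: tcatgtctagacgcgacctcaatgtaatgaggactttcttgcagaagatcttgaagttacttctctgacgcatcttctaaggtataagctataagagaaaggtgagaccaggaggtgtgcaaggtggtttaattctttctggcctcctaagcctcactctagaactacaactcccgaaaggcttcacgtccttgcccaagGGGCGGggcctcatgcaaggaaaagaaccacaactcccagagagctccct
Ndufb4 promoter, chr11:76568928-76569177, plus strand: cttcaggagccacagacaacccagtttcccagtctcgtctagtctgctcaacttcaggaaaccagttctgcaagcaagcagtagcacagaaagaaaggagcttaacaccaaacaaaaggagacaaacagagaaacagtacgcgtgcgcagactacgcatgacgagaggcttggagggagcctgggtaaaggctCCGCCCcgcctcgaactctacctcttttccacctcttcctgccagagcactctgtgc
Ndufa7 promoter, chr7:15311196-15311445, plus strand: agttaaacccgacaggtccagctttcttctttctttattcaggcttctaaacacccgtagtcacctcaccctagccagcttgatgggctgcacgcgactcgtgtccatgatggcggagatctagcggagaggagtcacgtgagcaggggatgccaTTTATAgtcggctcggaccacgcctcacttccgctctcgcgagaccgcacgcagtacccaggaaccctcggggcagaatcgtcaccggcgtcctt

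The Atp5me promoter held 1 match each to the NRF1, ETS, YY1 and Sp1 motifs, those of Ndufa3 and Ndufb4 held 1 Sp1 match each, and that of Ndufa7 held 1 TATAAA match. Promoters were found for 68 of the 77 member symbols. The ETS motif stood in 18 of these 68 (26.5%), against 7.74% of 27457 promoters of the same length. NRF1 motifs stood in 4 of 68 (5.88%), against 0.849%, and YY1 motifs in 4 (5.88%), against 4.63%. The Sp1 motif stood in 33.8% of member promoters and 32.4% of all promoters, and TATAAA in 10.3% and 13.1%. The median GC content was 54.6% in member promoters and 52% in all. A match is a description of letters and not a measured site.

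Atp5me had 277 and 263 CPM in fascia lymphocytes, against 49.9 and 75.0 CPM in skin lymphocytes. In blood endothelial cells it had 201 and 220 CPM in fascia and 62.2 and 56.8 CPM in skin, and in fibroblasts 197 and 201 CPM in fascia and 89.3 and 80.3 CPM in skin. No fascia library overlapped a skin library in these classes, which was a condition for naming the gene. The log2 changes, on the TMM scale, were 1.99 (SE 0.34, adjusted p = 0.00522) in lymphocytes, 1.35 (SE 0.22, adjusted p = 0.00918) in blood endothelial cells and 1.01 (SE 0.20, adjusted p = 0.0274) in fibroblasts. Macrophages, where it was not called, had 220 and 198 CPM in fascia and 83.3 and 105 CPM in skin.

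Ndufa3 had 65.0 and 64.6 CPM in fascia fibroblasts and 27.5 and 27.8 CPM in skin fibroblasts, a log2 change of 1.02 (SE 0.16, adjusted p = 0.0174). Its change was 1.06 (SE 0.20, adjusted p = 0.0147) in blood endothelial cells and 1.41 (SE 0.29, adjusted p = 0.0171) in mural cells, where fascia had 55.9 and 54.4 CPM and skin had 22.2 and 12.8 CPM. Ndufb4 had 196 and 222 CPM in fascia mural cells, against 66.7 and 85.7 CPM in skin mural cells, a change of 0.96 (SE 0.23, adjusted p = 0.026). Its change was 1.17 (SE 0.23, adjusted p = 0.0159) in blood endothelial cells and 1.39 (SE 0.31, adjusted p = 0.0183) in lymphocytes. Both genes were thus well apart between tissues in each class that called them.

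A further 16 symbols were called higher in fascia in 1 or 2 classes, 10 of them complex I by symbol, as are 34 of the 72 members tested. Ndufa2 had 98.9 and 96.9 CPM in fascia blood endothelial cells and 18.3 and 24.2 CPM in skin ones, the widest gap of that class (log2 1.77, SE 0.20, adjusted p = 0.00273). Ndufa4, which is counted here with complex I by its symbol and is now known to sit in complex IV, had 392 and 362 CPM in fascia and 126 and 134 CPM in skin blood endothelial cells (1.07, SE 0.21, adjusted p = 0.0147). In fibroblasts Ndufa4 had 297 and 296 CPM in fascia and 144 and 151 CPM in skin (0.80, SE 0.18, adjusted p = 0.0396). Ndufb3 and Ndufv3 rose in both of these classes, by 0.67 and 0.84 in fibroblasts and by 0.75 and 0.88 in blood endothelial cells. So did one of the 2 Ndufs5 identifiers, by 1.63 and 0.99. Sdha, the flavoprotein of complex II and the only complex II gene called in any tissue comparison, had 95.8 and 90.0 CPM in fascia and 36.6 and 50.9 CPM in skin blood endothelial cells (0.66, SE 0.19, adjusted p = 0.0484).

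The 12 calls in lymphocytes ranged from 1.02 to 1.99 on the log2 scale. Complex I gave Ndufb2, Ndufa13, Ndufb7, Ndufa1, Ndufb4 and Ndufa11, complex IV gave Cox7b and Cox7a2l2, and the ATP synthase gave Atp5pf, Atp5mf, Atp5mk and Atp5me. Ndufa1, a small membrane subunit, had 281 and 285 CPM in fascia and 133 and 90.0 CPM in skin (1.29, SE 0.30, adjusted p = 0.0226). Cox7b had 349 and 328 CPM in fascia and 162 and 132 CPM in skin (1.14, SE 0.29, adjusted p = 0.0333). Each rested on 46 and 85 skin lymphocytes. Neither Atp5f1b nor Uqcrfs1, the iron-sulphur protein of complex III, passed the test in these cells. Atp5f1b had 469 and 391 CPM in fascia and 333 and 303 CPM in skin, and Uqcrfs1 had 141 and 119 CPM in fascia and 150 and 168 CPM in skin.

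**Figure D2:**
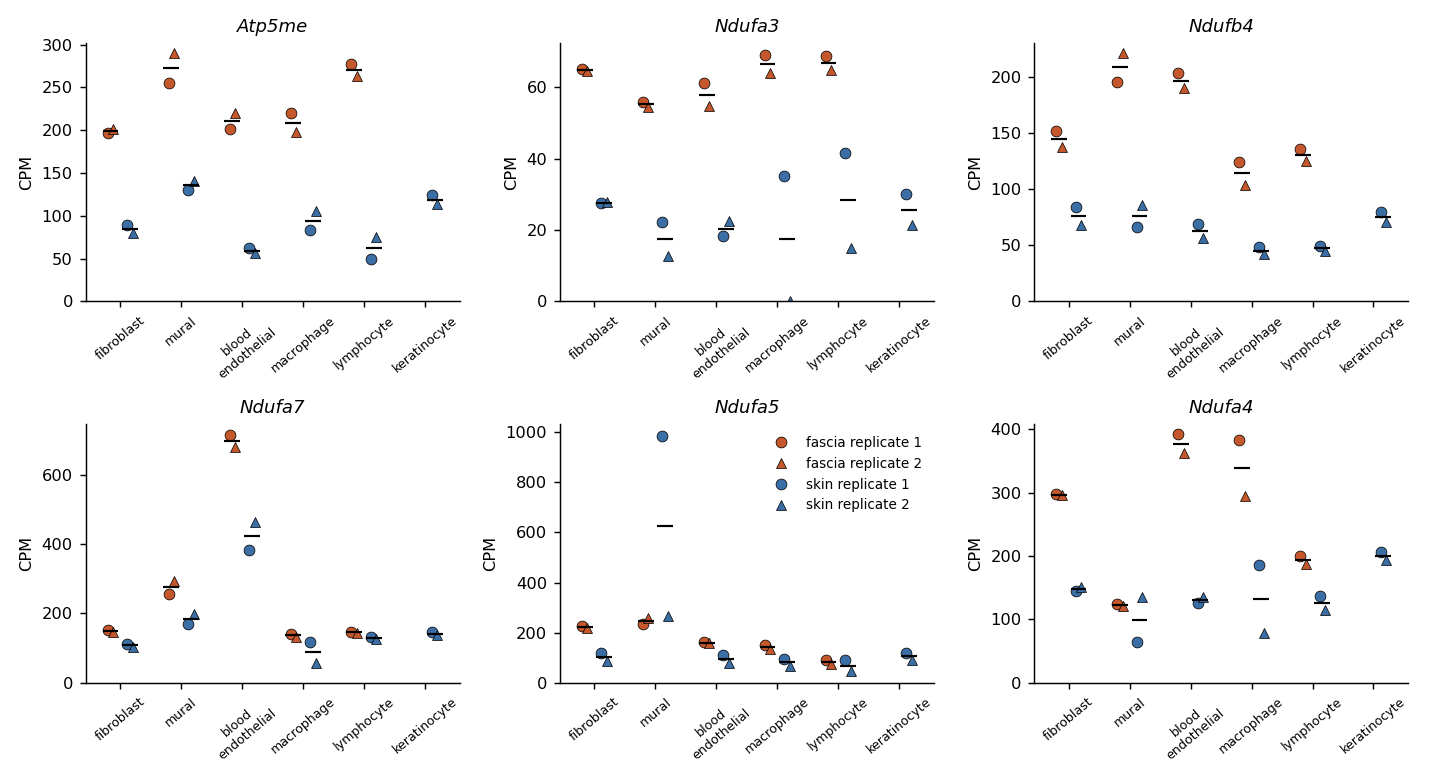
Levels (CPM, linear axes from 0) of 6 members by class and library; points are libraries (fascia orange, skin blue) and lines are means of 2. Atp5me, Ndufa3 and Ndufb4 lie higher in fascia throughout, Ndufa7 stands out in blood endothelial cells of both tissues, and Ndufa5 reaches 987 CPM in mural cells of skin replicate 1 alone.

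**Figure D3:**
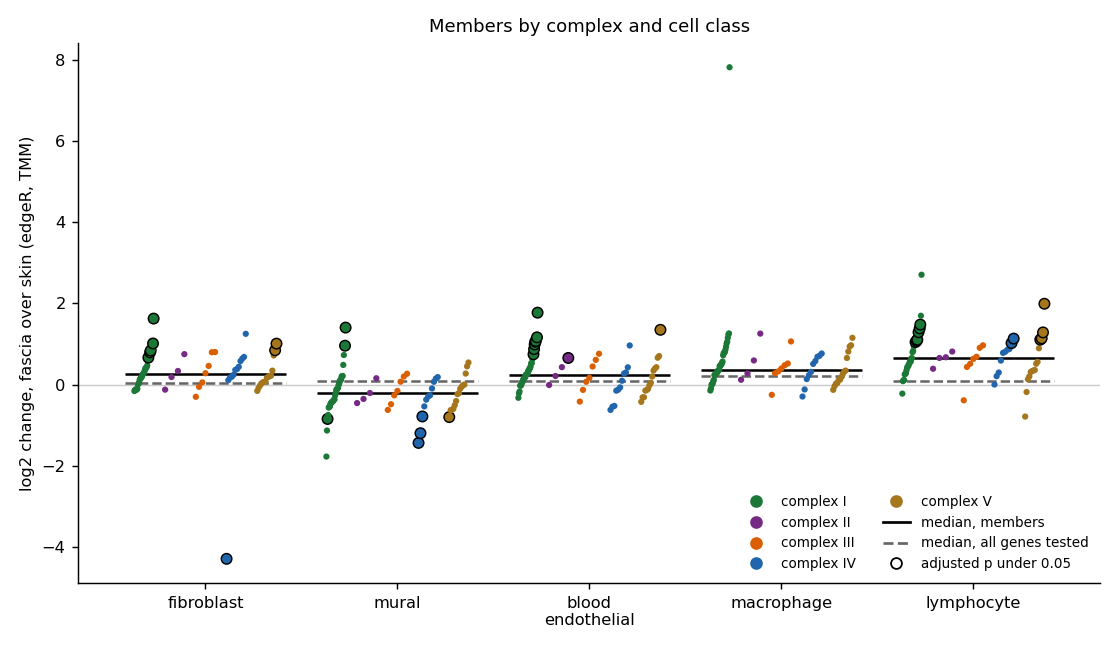
Log2 change, fascia over skin (edgeR, TMM), of each member tested, by class and complex; black rings mark an adjusted p under 0.05, solid lines the median of members and dashed lines the median of all genes. The solid line lies above the dashed one in 4 classes and below it in mural cells (-0.21 against 0.09); the point at 7.81 in macrophages is Ndufs6, with 3.4 and 2.5 CPM in fascia and 0 in both skin libraries, where the fitted value is no bound.

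Depth and single libraries bore on these counts. With fascia replicate 1 left out the members called numbered 1 in fibroblasts, 3 in blood endothelial cells, 1 in lymphocytes, 1 in mural cells and 0 in macrophages, and with fascia replicate 2 left out they numbered 2, 5, 1, 2 and 0 in that order. With skin replicate 1 left out the counts were 8, 10, 21, 25 and 4, and with skin replicate 2 left out they were 6, 8, 30, 8 and 1. The share of all genes called moved as well, to between 5.97% and 17.6% in fibroblasts, 8.9% and 22.3% in blood endothelial cells, 3.93% and 22.5% in lymphocytes, 8.63% and 18% in mural cells, and 0.863% and 9.8% in macrophages. Early response and stress genes, which respond to tissue dissociation, moved with the tissue: of 12 tested, 7 were lower in fascia in fibroblasts, 8 in mural cells, 5 in blood endothelial cells, 6 in macrophages and 4 in lymphocytes, where 1 was higher, beside 3.71% to 12.9% of all genes lower. Their part in the changes of the members was not tested.

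Cox4i2 was the member with the sharpest pattern. In mural cells it had 237 and 278 CPM in fascia and 620 and 406 CPM in skin. In fibroblasts it had 1.0 and 2.4 CPM in fascia, against 20.7 and 32.4 CPM in skin. Both classes were lower in fascia without overlap, by 1.43 on the log2 scale in mural cells (-1.43, SE 0.27, adjusted p = 0.0103) and by more in fibroblasts (-4.28, SE 0.48, adjusted p = 0.00902). The mural change was no longer called without fascia replicate 1 (-1.33, adjusted p = 0.0575). Blood endothelial cells had 6.8 and 2.6 CPM in fascia and 1.2 and 2.5 CPM in skin, and macrophages 0.55 and 0.93 CPM in fascia and 0 in skin. Its general counterpart Cox4i1 had 1005 and 830 CPM in fascia fibroblasts and 574 and 643 CPM in skin fibroblasts, without a call.

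In fibroblasts Cox4i2 was seen in few cells. At least 1 UMI was found in 39 of 2786 and 21 of 779 fascia fibroblasts (1.4% and 2.7%), against 58 of 480 and 47 of 691 skin fibroblasts (12.1% and 6.80%), although the median depth was 16378 and 15973 UMIs in fascia and 10557 and 4977 UMIs in skin. With each cell thinned to 2000 UMIs, which left out 63 and 53 fascia and 11 and 193 skin fibroblasts, the shares were 0.147% and 0.138% in fascia and 3.84% and 3.41% in skin. Macrophages, taken as cells that should lack the gene, had a UMI in 0.336% and 1.06% of fascia cells and in 0 of 47 and 0 of 33 skin cells, which allows up to 6.38% and 9.09%, at median depths of 12114 and 11269 UMIs in fascia and 9501 and 5519 UMIs in skin. Thinned alike, they had 0.0679% and 0.298% in fascia, where the thinned values rest on 4 and 1 fibroblasts and 1 and 5 macrophages with a UMI, too few to order the classes. The skin macrophages were too few to set a background for skin fibroblasts, whose thinned shares lay below the limits that they allow. A single cell gave 55 of the 127 UMIs of skin replicate 2. Without that library the change was -4.05 (adjusted p = 0.0269). The 9 mural markers summed to 159 and 285 CPM in fascia fibroblasts and to 174 and 352 CPM in skin fibroblasts, none at 0. Rgs5, a pericyte marker, stood at 0.82 and 3.6 CPM in fascia and 0.18 and 4.8 CPM in skin fibroblasts. Ndufa4l2, a gene outside the set that pericytes also express, was likewise lower in fascia fibroblasts (-8.59, SE 0.80, adjusted p = 0.0067). Of the fibroblasts with a Cox4i2 UMI, 0 and 3 in fascia and 0 and 1 in skin also had one of Rgs5.

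The fibroblast change was tested against the mean change of the other classes in a fit of 20 sums with library as a block. For Cox4i2 that mean drew on blood endothelial cells, macrophages and lymphocytes, where its level was low. It also drew on mural cells, where Cox4i2 was lower in fascia as well (-1.43). Cox4i2 was the 1 of 71 members called for fibroblasts, at -5.45 (adjusted p = 0.00823), beside 7.52% of all genes. Its adjusted p became 1 without fascia replicate 2 (-4.56), 0.103 with skin replicate 1 left out (-5.54) and 0.061 when the other skin library was dropped (-7.10). For mural cells 2 of 71 were called beside 3.33% of all genes, and for blood endothelial cells, macrophages and lymphocytes 0 members were called, beside 2.86%, 1.86% and 4.06%, all by edgeR. At an unadjusted p under 0.05 these 3 classes had 1, 0 and 25 members, beside 2161 of 14698 genes in blood endothelial cells. No result about the members as a set is drawn from these counts. The 2 mural calls were Ndufa5 (-1.98, adjusted p = 0.00173) and Ndufb7 (-0.99, adjusted p = 0.0246). Ndufb7 lost its call without fascia replicate 1 (-0.93, adjusted p = 0.599), fascia replicate 2 (-1.15, adjusted p = 0.297) or skin replicate 2 (-0.69, adjusted p = 0.24).

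**Figure D4:**
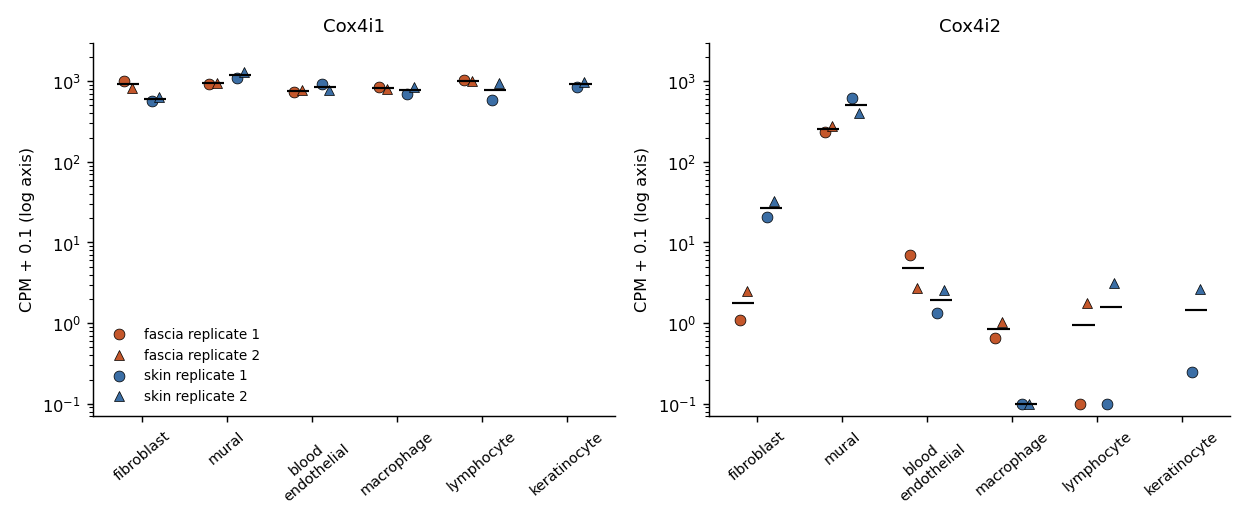
Levels of Cox4i1 and Cox4i2 (CPM plus 0.1, log axes) by class and library; points are libraries (fascia orange, skin blue) and lines are arithmetic means of 2. Cox4i1 stays between 574 and 1283 CPM throughout, while Cox4i2 is near 0 outside mural cells except in skin fibroblasts.

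Mural cells of the 2 tissues split differently by the genes detected in them. Cells with a UMI of Myh11, the smooth muscle myosin, and none of the pericyte channel genes Kcnj8 or Abcc9 made up 18.4% and 21.8% of mural cells in fascia and 74.2% and 75.5% in skin. Within these cells the share of the 82 genes was 2.04% and 2.16% in fascia and 1.5% and 1.72% in skin, and the Mt- share overlapped, at 5.08% and 5.58% in fascia and 4.85% and 6.52% in skin. Cox4i2 had 406 and 478 CPM in fascia and 416 and 394 CPM in skin, and its change was no longer called (-0.35, adjusted p = 0.419). The same held for Cox5a (-0.75, adjusted p = 0.0834), a subunit that in all mural cells had 114 and 123 CPM in fascia and 158 and 229 CPM in skin (-1.19, SE 0.23, adjusted p = 0.0127). Cox4i1 (-0.78, adjusted p = 0.0423) and Atp5f1d, the delta subunit of the ATP synthase (-0.80, adjusted p = 0.0486), also lost their calls in the subset at changes of similar size (-0.65 and -0.73, adjusted p = 0.11 and 0.0798), and both did so under UMI totals (-0.33 and -0.34, adjusted p = 0.256 and 0.257). Ndufa9 was the fifth lower call in all mural cells, and its libraries overlapped, with 87.4 and 94.0 CPM in fascia and 91.7 and 136 CPM in skin. In the subset Ndufa3 (1.53, adjusted p = 0.0202) and Ndufb4 (1.29, adjusted p = 0.00764) kept theirs. The subset held 46 and 188 skin cells, and it was chosen after the values had been seen. Over all mural cells the median depth was 10279 and 9433 UMIs in fascia and 5991 and 4758 UMIs in skin. A shallower cell more often shows no UMI of a given gene. Rgs5 had 700 and 785 CPM in fascia and 745 and 170 CPM in skin mural cells, and Myh11 1715 and 1915 CPM and 1904 and 3406 CPM. The part of depth in the split was not tested.

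Ndufa5, an accessory subunit of complex I, stood apart in 1 library. It had 233 and 259 CPM in fascia mural cells, against 987 and 266 CPM in skin mural cells, with the high value in skin replicate 1. That value came from 355 UMIs in 51 of 62 cells, and the 5 highest cells gave 31.8% of them. The median cell had 207 and 243 CPM in fascia and 572 and 209 CPM in skin. In fibroblasts Ndufa5 had 225 and 219 CPM in fascia and 118 and 88.5 CPM in skin, the opposite order. The tissue change within mural cells was not called (-1.77, SE 0.52, adjusted p = 0.0566). Its difference from the change in the other classes was smaller without skin replicate 1, and still called (-1.36, adjusted p = 0.02).

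Mural cells were then set against the mean of the other 4 classes, within libraries. Of 71 members tested 40 were called and 39 were higher in mural cells, with a median change of 0.44 beside -0.05 for all genes. Without skin replicate 2 the calls fell to 22, with 19 higher. In that fit 30.6% of members and 36.6% of all genes were called, and 26.4% and 19.8% were called higher. With any other library left out 45.1% to 55.6% of members were called higher, beside 16.3% to 24% of all genes. With all libraries 43.9% of all genes were called and 22.4% were called higher, beside 54.9% of the members called higher. Grouped by symbol, complex I gave 22 of 34 higher and 1 lower, which was Ndufa4. Complex II gave 3 of 4 higher, complex III 5 of 7, complex IV 3 of 11 and complex V 6 of 15. Cox4i2 led with 6.82 (SE 0.50, adjusted p = 1.36e-08). Sdhc, a membrane anchor of complex II, had 202 and 231 CPM in fascia and 111 and 163 CPM in skin mural cells, and 73.6 and 69.8 CPM in fascia and 40.4 and 58.9 CPM in skin fibroblasts (1.32, SE 0.12, adjusted p = 3.07e-07).

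The other leading members were Ndufa5 (1.75, adjusted p = 9.11e-05), Sdha (1.11, adjusted p = 3.09e-05) and Atp5f1b (1.05, SE 0.13, adjusted p = 4.46e-06). Atp5f1b had 832 and 809 CPM in fascia and 656 and 922 CPM in skin mural cells, with 351 to 469 CPM in the other classes of fascia and 279 to 366 CPM in those of skin. Ndufa4 was the 1 member called lower, at 124 and 120 CPM in fascia and 63.9 and 135 CPM in skin mural cells (-0.95, SE 0.25, adjusted p = 0.00638). Its paralogue Ndufa4l2, which is no member, was higher in mural cells (5.71, SE 0.87, adjusted p = 5.72e-05).

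**Figure D5:**
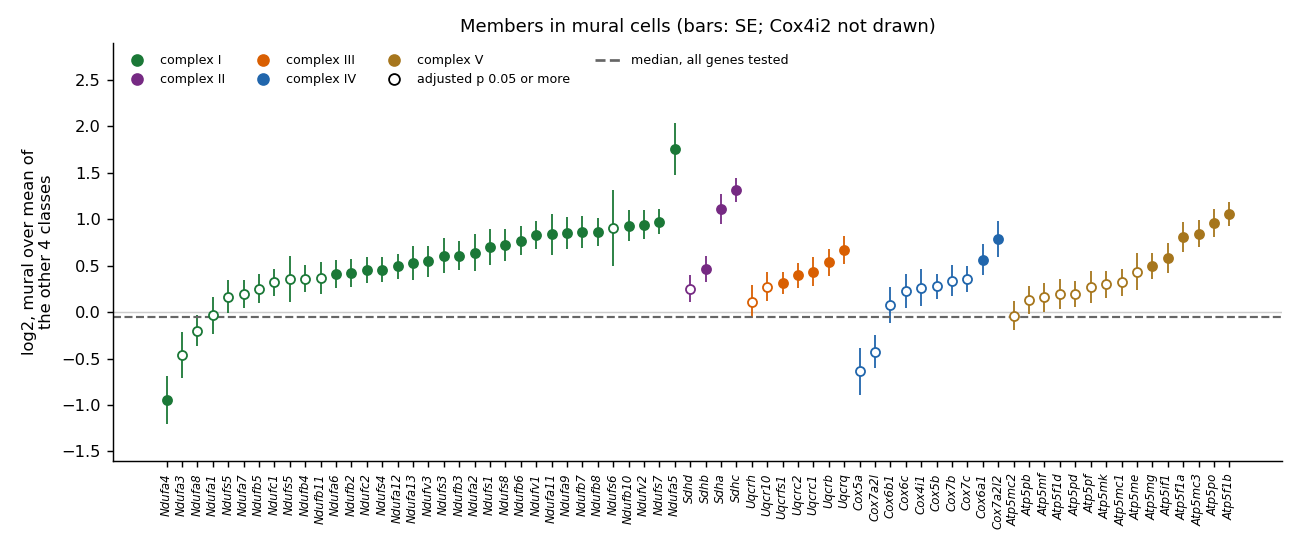
Log2 change of each member in mural cells over the mean of the other 4 classes (edgeR, library as a block), grouped by complex; bars are SE, filled points have an adjusted p under 0.05 and the dashed line is the median of all genes (-0.05). Cox4i2, at 6.82, is not drawn; most points lie above the line, Sdhc and Ndufa5 highest and Ndufa4 lowest.

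Genes around the chain were read from the same mural contrast. Of the 17 genes of the tricarboxylic acid cycle 10 were higher and 0 lower (median 0.48), with Suclg1 at 1.99 (adjusted p = 2.5e-08), Idh2 at 1.52 and citrate synthase, Cs, at 0.93. Of 19 symbols of electron carriers and inner membrane genes 12 were higher and 0 lower (median 0.68 over 20 identifiers), among them Cycs, cytochrome c, at 1.87 and Slc25a4, an ADP/ATP carrier, at 1.2. The Mt- genes had 8 of 13 higher (median 0.50). Of 40 assembly factors 5 were higher and 2 lower (median 0.07), and of 15 regulators of mitochondrial biogenesis Ppargc1b was higher (2.15) and Nrf1 lower (-0.86). Glycolysis had 6 of 16 higher and 1 lower, and 39 of 90 cytosolic ribosomal protein genes were lower. Early response and stress genes were higher in 7 of 12, which was measured in the same cells, and their part was not tested.

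On the same TMM scale lymphocytes had most of their called members below the other classes, although their share of UMIs was above that of fibroblasts in all 4 libraries. Of 71 members 28 were called, all 28 lower than the mean of the other classes, beside 46.7% of all genes called and 26.2% called lower. The median was -0.41, against -0.11 for all genes, and with relative log expression factors it was -0.40. The calls numbered 19 and 12 with fascia replicate 1 or 2 left out, beside 33.1% and 30.1% of all genes. With skin replicate 1 or 2 left out they numbered 16 and 18, beside 47.4% and 40.5%. Ndufa5 had 91.7 and 75.4 CPM in fascia and 91.4 and 45.0 CPM in skin lymphocytes (-1.48, SE 0.34, adjusted p = 0.00176). Ndufa11 (-1.11), Ndufa7 (-0.84) and Ndufb8 (-0.79) followed, and Cox4i2 was at 0 and 1.7 CPM in fascia and 0 and 3.0 CPM in skin. Cytosolic ribosomal protein genes were higher in 47 of 90.

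Blood endothelial cells had 8 of 71 members called, 5 higher and 3 lower, beside 33.4% of all genes. The calls numbered 5 without fascia replicate 1, 4 without fascia replicate 2 and 5 with skin replicate 1 left out. Of all genes 25.3%, 21.6% and 32.2% were called in that order. Ndufa7, an accessory subunit of complex I, had 715 and 683 CPM in fascia and 382 and 464 CPM in skin, against 133 to 294 CPM in the other classes of fascia and 58.0 to 199 CPM in those of skin. It was highest in blood endothelial cells in each library (1.93, SE 0.13, adjusted p = 6.99e-09). Ndufa8 was also higher, at 194 and 174 CPM in fascia and 104 and 159 CPM in skin (0.98, SE 0.15, adjusted p = 7.3e-05), as were Atp5pf (0.82), Cox5a (0.65) and Ndufs8 (0.49). Ndufa2 was lower (-1.28, SE 0.22, adjusted p = 0.00021), as were Ndufa9 (-0.50) and Atp5pb (-0.44).

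Macrophages had 8 of 71 called, beside 38.7%, with Ndufa13 (0.70, adjusted p = 0.00491), Ndufa2 (0.64), Ndufa4 (0.61), Sdhd (0.59) and Atp5pb (0.57) higher and Cox4i2 (-3.24, a fitted value with 0 in both skin libraries, and no bound) and Ndufa7 (-0.70) lower. The calls numbered 2 without fascia replicate 1 and 1 without fascia replicate 2, none of them higher, and 5 without skin replicate 1, with 2 higher. Of all genes 27%, 23.3% and 38.9% were called in that order. Fibroblasts had 3 of 71 called, beside 39.5%: Ndufa11 was higher (0.60, adjusted p = 0.0412), and Ndufa7 (-0.58) and Atp5mc2 (-0.49) were lower. With either fascia library left out edgeR called none of the members. Of all genes 27.1% and 25.4% were then called. In fibroblasts 11 of 13 Mt- genes were lower than in the other classes.

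Further members, core subunits among them, were read in fibroblasts, where none of those named here was called. Ndufv1, the NADH-binding subunit of complex I, had 68.8 and 62.9 CPM in fascia and 38.9 and 73.9 CPM in skin fibroblasts, so the tissues overlapped. Ndufs1, the largest core subunit, had 25.1 and 21.1 CPM in fascia and 11.6 and 15.3 CPM in skin fibroblasts, without a call (0.59, adjusted p = 0.098). Atp5f1a, the alpha subunit of the ATP synthase, had 185 and 180 CPM in fascia and 133 and 172 CPM in skin fibroblasts (0.06, adjusted p = 0.832), and its inhibitor Atp5if1 had 254 in both fascia libraries and 226 and 158 CPM in skin. Of the complex IV subunits, Cox5b had 286 and 270 CPM in fascia and 217 and 200 CPM in skin fibroblasts (0.20, adjusted p = 0.523), and Cox6c had 568 and 461 CPM in fascia and 468 and 266 CPM in skin. Cox7a2l, which joins complexes III and IV, had 314 and 273 CPM in fascia and 214 and 257 CPM in skin fibroblasts.

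The isoforms of muscle had few UMIs. Cox7a1 had 2.0 CPM in both fascia fibroblast libraries and 0.70 and 0.76 CPM in skin ones. Cox6a2 had no UMI in fibroblasts, mural or blood endothelial cells of any library, while Cox6a1, its general counterpart, had 419 and 418 CPM in fascia and 280 and 250 CPM in skin fibroblasts. The UMIs of Cox6a2 numbered 2 and 1 in fascia and 2 and 94 in skin. Of the 94 in skin replicate 2, 43 lay in 25 gated cells and 51 in 31 cells that passed no gate.

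The lists around the chain were also read from the tissue comparison, in which 12.9% of all genes were called lower in fascia fibroblasts, 9.87% in mural cells, 12.8% in blood endothelial cells, 3.71% in macrophages and 8.39% in lymphocytes. Of 40 assembly factors tested, Fmc1 (1.00) and Pet100 (1.13) were higher in fascia fibroblasts. Of 17 tricarboxylic acid cycle genes 2 were lower in fascia mural cells. In fibroblasts, blood endothelial cells and macrophages 1 each was higher, and lymphocytes had 1 higher and 1 lower. Of 19 symbols of electron carriers and inner membrane genes 5 were lower in fascia mural cells, 3 in fibroblasts and 4 in blood endothelial cells, among them in mural cells Cycs (-3.32) and the outer membrane channel Vdac1 (-1.51). Of the Mt- genes 8 of 13 were lower in fascia mural cells (median -0.90) and 1 of 13, Mt-nd6, in fibroblasts (-1.46) and in lymphocytes (-2.21), while in blood endothelial cells Mt-nd3 was higher (1.14, adjusted p = 0.0288). Of the glycolysis genes 4 of 16 were lower in fascia fibroblasts, 3 of 16 in mural cells, 6 of 15 in blood endothelial cells and 1 of 14 in macrophages, with the glucose transporter Slc2a1 at -2.09 (adjusted p = 0.00645) in fibroblasts and -2.66 (adjusted p = 0.00145) in blood endothelial cells. Of the regulators of mitochondrial biogenesis 1 of 15 was lower in fascia fibroblasts, 2 of 14 in mural cells and 2 of 13 in blood endothelial cells. In mural cells 1 was higher, Tefm (8.61, SE 1.98). The list medians were 0.22, 0.23 and 0.51 in that order, beside 0.05, 0.09 and 0.09 for all genes. Among the lower ones, Gabpb1, a subunit of the GABP regulator of respiratory genes, was lower in fascia in fibroblasts (-1.01), mural cells (-1.37) and blood endothelial cells (-1.04). Slc25a5, an ADP/ATP carrier, was lower in the same 3 classes, at -1.13, -1.11 and -0.95.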

How the data were processed

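Wild-type rat fascia and skin cells were measured with 10x Genomics 3′ libraries, 2 per tissue. The authors deposited raw UMI counts per gene and cell. Per the file headers the matrices came from Cell Ranger 7.0.0, whereas the submitters' processing notes name Cell Ranger 6.0.1, STAR and the builds mRatBN7.2 and GRCh38.p13. Whether intronic reads were counted is not given in the sources used here.

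Cells with at least 500 genes and at most 20% Mt- UMIs were kept. Doublets were scored with Scrublet in Scanpy. Where it marked under 0.5% of cells, the top 0.8% per 1000 cells were removed. This applied to both skin libraries (0% and 0.0057% marked) and to no fascia library (2.86% and 2.66%), so the rule differed with tissue. Of the cells that passed the filters, 462 and 2344 were removed in skin and 200 and 190 in fascia. Keeping the removed cells was among the alternatives. For 11 classes (90 of 98 markers matched), a cell passed a gate when at least 3 of the class's markers had a UMI and its mean ln(1 + counts per 10000) was at least 2 times that of the next class. A class needed 20 cells in every library to be compared. Counts were summed per class and library, since cells are not replicates, and tested over all genes with edgeR 4.0.16 in R 4.3.3 (TMM factors, quasi-likelihood test, Benjamini-Hochberg adjustment at 0.05). The classes were compared in a joint fit of 20 sums. All fits were tested on simulated data. Intervals and zero counts cover counting error only.

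Alternatives were DESeq2 1.42.0, relative log expression factors, no filter on low counts, a replicate block, other limits on cells and gates, thinning to 2000 UMIs, and leaving out each library. Scaling by UMI totals, the Myh11 subset, the crossed block and the thinned shares of cells with Cox4i2 were added after the data had been seen. Named members had at least 20 CPM in the higher tissue and libraries that did not overlap (at most 10 per direction), or were among the 5 largest per direction between classes. Isoform pairs, core subunits and the most and least abundant members were added whatever their values, and Ndufs6, Ndufa9 and Ndufa5 between tissues were chosen after their values were seen. The members and lists were chosen with earlier results of these data known. Replicate numbers did not pair the libraries.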

Additional observations from a re-analysis of the deposited data

Results flagged for a closer look

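In 3 members the change between tissues in one class differed from the mean change of the other classes by the interaction test in edgeR. These were Cox4i2 in fibroblasts (-5.45 on the log2 scale), Ndufa5 in mural cells (-1.98) and Ndufb7 in mural cells (-0.99). The calls of Cox4i2 and Ndufb7 were lost in most fits that left out a library. Among the other classes Cox4i2 was well detected in mural cells alone, and there it was also lower in fascia (-1.43).

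The share of Mt- UMIs moved in opposite directions between classes. In macrophages both fascia libraries lay above both skin libraries (log2 ratio 0.38), while in fibroblasts (-0.24), mural cells (-0.37) and lymphocytes (-0.35) both lay below. Among mural cells with Myh11 and neither Kcnj8 nor Abcc9 the tissues overlapped, at 5.08% and 5.58% in fascia and 4.85% and 6.52% in skin. The difference between classes was not tested.

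Cox6a2, the muscle form of a complex IV subunit, gave 51 UMIs in 31 cells of skin replicate 2 that passed no gate and entered no comparison. Gated cells of that library gave a further 43 UMIs in 25 cells. The ungated cells of both fascia libraries gave 0 and those of skin replicate 1 gave 1. Skeletal muscle markers in the ungated cells summed to 6.2 and 14.1 CPM in fascia and to 21.7 and 760 CPM in skin.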

How the results depend on the processing

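The share of the 82 genes was higher in fascia in all 5 classes under every alternative tried, each of them a part of a UMI total. With TMM factors the median change of the members in mural cells was -0.21, with 48 of 71 below 0. The log2 ratio of the share in fibroblasts was 0.50, and 0.57 with the median over cells. Leaving out 1 library gave 0.47 to 0.54 in fibroblasts, 0.07 to 0.24 in mural cells, 0.51 to 0.60 in blood endothelial cells, 0.53 to 0.65 in macrophages and 0.56 to 0.68 in lymphocytes. Counts of members called between tissues moved more. Scaling by UMI totals gave 18 in fibroblasts, 12 in mural cells, 28 in blood endothelial cells and 8 in macrophages, beside 20.5%, 27.4%, 29.7% and 9.59% of all genes. No filter on low counts gave 19 in fibroblasts, 14 in blood endothelial cells and 22 in lymphocytes, beside 22.6%, 20.6% and 10.4%. Thinning gave 5 in blood endothelial cells, 1 in macrophages and 7 in lymphocytes, beside 14%, 5.25% and 15.3%. Relative log expression factors gave 5 in fibroblasts (19.9% of all genes), and DESeq2 gave 5 in blood endothelial cells (17.1%). At most 10% Mt- UMIs gave 7 in lymphocytes (10.3%), and the Myh11 subset gave 3 in mural cells (13.6%). The replicate block gave 2 in macrophages and 1 in lymphocytes, and 8, 5 and 7 in fibroblasts, mural and blood endothelial cells. The shares of all genes called were 7.29%, 5.3%, 23.4%, 13.9% and 19.1% in that order. Same-numbered libraries had correlations of -0.21 to 0.02. The crossed pairing gave 9 in mural and 13 in blood endothelial cells, beside 17% and 28.3% of all genes. Leaving out 1 library gave 1 to 8 in fibroblasts, 1 to 25 in mural cells, 3 to 10 in blood endothelial cells, 0 to 4 in macrophages and 1 to 30 in lymphocytes. Between classes, no library block gave 1 in fibroblasts, 25 in mural cells, 5 in blood endothelial cells and 16 in lymphocytes. Of all genes 31.6%, 35.1%, 26.6% and 38.7% were called in that order. Fascia alone gave 24 in fibroblasts, 21 in blood endothelial cells and 17 in macrophages, beside 54.6%, 42.2% and 51.6% of all genes. Of the members these were 33.3%, 29.2% and 23.6%. Skin alone gave 5 in blood endothelial cells, 1 in macrophages and 14 in lymphocytes, beside 23.3%, 19.9% and 26.2% of all genes. Relative log expression factors gave 7 in fibroblasts and no filter gave 5 in blood endothelial cells, beside 39.7% and 21.1% of all genes. Leaving out 1 library gave 0 to 4 in fibroblasts, 22 to 42 in mural cells, 4 to 8 in blood endothelial cells, 1 to 8 in macrophages and 12 to 19 in lymphocytes. Of all genes 25.4% to 40.8%, 27.4% to 44.9%, 21.6% to 32.2%, 23.3% to 38.9% and 30.1% to 47.4% were called in that order. For the difference between tissue changes, relative log expression factors gave 5 in mural cells, and leaving out 1 library gave 0 to 2 in fibroblasts, 1 to 4 in mural cells, 0 to 2 in blood endothelial cells, 0 to 0 in macrophages and 0 to 6 in lymphocytes. For that difference in mural cells, relative log expression factors called 3.03% of all genes. With 1 library left out, the share of all genes called for that difference moved as well in each class. Such a fit holds 1 library of a tissue, so no result about the members is drawn from those counts. Of 65 results on 32 named genes, no alternative reversed one. Calls were lost in 84 values and kept in 578 under alternatives with all libraries, and lost in 115 and kept in 145 where 1 was left out. Apart from fewer libraries or cells by construction, the cause was not tested. Skin macrophages (47 and 33 cells) and lymphocytes (46 and 85 cells) set the depth limit.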
